A study of Mus musculus with 23 samples.

Results

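The 10 genes described here encode the machinery that puts peptides on the cell surface with MHC class I, together with the immunoproteasome. They were picked by symbol as a functional group, with no threshold on their values but with earlier results of these data known. All 10 were found among the 32793 gene rows of the count and TPM tables. All 10 passed the filter on low counts, which kept 14187 genes for testing. They are the class I heavy chains H2-K1 and H2-D1, the light chain B2m, the peptide transporter subunits Tap1 and Tap2, the loading factor Tapbp (tapasin), the immunoproteasome subunits Psmb8, Psmb9 and Psmb10, and the transactivator Nlrc5. The 23 libraries hold poly(A) RNA of C2C12 cells, mouse myoblasts of a line that fuses into myotubes when serum is withdrawn. Cells were labelled WT or Runx1KO, and no other allele or agent was named. Harvest was on day 0, in growth medium containing fetal bovine serum at 20%, or on days 1, 3 and 6 of differentiation in horse serum at 2%. The series text ends the time course a day earlier than the sample titles, which were followed here. WT on day 0 had 2 libraries and each of the other 7 groups had 3. How the knockout was made, and whether it is a single clone, is not given in the sources used here.

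In cells, proteasomes cut proteins into peptides, and the immunoproteasome subunits replace the constitutive catalytic subunits to change which peptides are made. The transporter carries peptides into the endoplasmic reticulum, where tapasin holds the empty heavy chain and light chain beside it until a peptide is bound. Interferons raise the transcription of most of these genes, and Nlrc5 acts at the promoters of class I genes, B2m, Tap1 and Psmb9. Skeletal muscle fibres normally show little class I at their surface.

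Total counts ran from 22197606 to 23684077 per library. Levels are given below as CPM, counts relative to the library size after TMM scaling (an edgeR factor for library composition). Runx1 mRNA was not lower in KO-labelled libraries. It was 118, 119 and 122 CPM there on day 0 against 84 and 83.9 CPM in WT, and it was 2.03-fold higher on day 6 (log2 fold change 1.02 ± 0.08 SE, adjusted p = 6.1e-10). The mRNA level does not tell whether Runx1 function was lost, so every direction below refers to the libraries as labelled. Replicates differed by more than counting noise, with a chi-square per degree of freedom between 3.19 and 64.9. The day 1 KO-labelled replicate 2 gave both highest values, and without that library the same 7 of the 10 genes were called on day 1. Nothing in the labels says that replicates came from separate cultures, so the p-values measure only the spread between these libraries, which may be technical.

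Muscle markers stood high in every group, with a summed level over 10 markers of 2695 to 2841 CPM in KO-labelled libraries and 1916 to 2007 CPM in WT on day 0. The sums overlapped on day 1 (2595 to 3207 against 2617 to 2843 CPM) and were apart again on day 3 (6175 to 8987 against 4316 to 4423 CPM) and day 6 (11478 to 13749 against 3848 to 4022 CPM). On days 0, 1 and 3, 3, 6 and 8 of the 10 markers were called higher and 1, 1 and 0 lower, where 17.5, 42.2 and 43.2% of all genes were called. On day 6, 8 of the 10 muscle markers were called higher and 1 lower, by the test described below, which called 42.9% of all genes (22% higher and 20.8% lower). A list of 10 leukocyte markers summed to at most 3.82 CPM in any library of days 0 to 3. On day 6 it summed to 11.4 to 13.8 CPM in KO-labelled libraries and to 5.12 to 8.34 CPM in WT. Most of the day 6 sum was Cd68 (10.7 against 3.32 CPM), a lysosomal glycoprotein of macrophages, whereas Csf1r, the receptor for macrophage growth factor, was lower (0.57 against 2.34 CPM). The macrophage marker Adgre1 was at 0 counts in all 23 libraries. A list of 5 endothelial markers summed to at most 1.25 CPM. The part that these changes have in the results below was not tested.

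Promoter sequences are shown for the genes whose windows held an interferon-related or NF-kB element, or the core recognised by Runx proteins. Tap1 and Psmb9, whose windows held only the CREB core and the CCAAT box among the patterns searched, are not printed. RefSeq (GRCm38.p6) gave windows of 300 bases for 8 of the 10 genes, and Tap2 and Nlrc5 were not among them. Sequences are written 5′ to 3′ on the gene's own strand with each match in capitals. The B2m sequence runs from chr2:122147437-122147685 on the + strand, up to 2 bases before the transcript start. In order, its capitals mark an interferon response element (GAAANNGAA), an NF-kB element (GGGANTTTC, on the opposite strand), a CREB site core (TGACG) and a CCAAT box on the opposite strand.
B2m: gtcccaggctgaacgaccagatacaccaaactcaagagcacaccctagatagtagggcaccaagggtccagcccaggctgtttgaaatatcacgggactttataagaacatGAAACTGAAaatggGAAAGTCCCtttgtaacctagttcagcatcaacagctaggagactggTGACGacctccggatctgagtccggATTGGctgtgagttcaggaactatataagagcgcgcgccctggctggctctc

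The heavy chain genes shared another pair of elements, an NF-kB element (GGGGNTTCC) followed by an interferon regulatory factor element (GAANTGAAA, on the opposite strand). The H2-K1 stretch lies at chr17:34000429-34000458 on the - strand, and the H2-D1 stretch at chr17:35262923-35262952 on the + strand. Of their 30 bases, 29 are the same.
H2-K1: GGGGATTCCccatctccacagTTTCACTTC
H2-D1: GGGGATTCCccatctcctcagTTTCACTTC

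Psmb8 held a gamma-activated site (TTCNNNGAA), an element of interferon gamma responses, at chr17:34198087-34198116 on the + strand. The Runx core (TGTGGT) was found in Tapbp at chr17:33919374-33919403 on the + strand, and on the opposite strand in Psmb10 at chr8:105938388-105938417, whose gene lies on the - strand.
Psmb8: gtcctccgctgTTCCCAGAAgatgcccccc
Tapbp: ggaacgcgggagTGTGGTtttaagggaggt
Psmb10: tggcatgcacatACCACAttcactcacaca

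Each of these letter patterns is also found elsewhere. Over 32851 promoter windows of 300 bases, searched on both strands, GAAANNGAA was in 8.56%, GAANTGAAA in 1.83%, GGGANTTTC in 1.11% and GGGGNTTCC in 1.69%. TTCNNNGAA was in 8.3%, TGACG in 20.8% (5 of the 8 genes), CCAAT in 37.4% (6 of the 8 genes) and TGTGGT in 16.8% (2 of the 8 genes). No search pattern is contained in another, and matches may overlap. A match is a description of the letters and not evidence of binding. In the GENCODE annotation the H2-D1, Psmb8, Tapbp and Psmb10 stretches lie in an exon of at least 1 transcript, and the B2m and H2-K1 stretches do not.

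Of the 10 genes, 7 are on chromosome 17, in the mouse MHC region, and Psmb9, Tap1, Psmb8 and Tap2 lie together within 34.3 kb (chr17:34182030-34216321). Psmb9 and Tap1 are read in opposite directions from starts 225 bases apart. In GENCODE, exons of the transcripts Psmb9-204 and Tap1-206 share 212 bases there, and reads from the overlap cannot be told apart where counting ignores strand, which the sources used here do not state. B2m is on chromosome 2 (122147687 to 122153082), and Psmb10 and Nlrc5 are on chromosome 8.

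Per transcript length, B2m was by far the most abundant of the 10 genes. On the TPM scale its group means ran from 511 ± 3.66 (SD, n = 2) in WT on day 0 to 2974 ± 117 (SD, n = 3) in KO-labelled libraries on day 6. The heavy chains and tapasin came next, with group means of 74.6 to 427 TPM for H2-K1, 66.7 to 439 TPM for H2-D1 and 42.6 to 219 TPM for Tapbp. Tap2 stood between 4.9 and 27.4 TPM, Psmb10 between 9.58 and 23.5 TPM, and Tap1 between 1.54 and 15.2 TPM. Psmb8, Psmb9 and Nlrc5 were scarce in every group, at no more than 3.2, 5.5 and 1.71 TPM.

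The first question was how the genotypes differed in growth medium and on each day of differentiation. In growth medium and on day 1, more of the genes were lower than higher in KO-labelled libraries. By day 6, 8 of the 10 were higher and none was lower. Genes are called here where edgeR's quasi-likelihood F-test gave an adjusted p under 0.05. On day 0, 2 genes were called higher and 5 lower, against 17.5% of all tested genes called (7.36% higher and 10.1% lower). On day 1 the counts were again 2 higher and 5 lower, against 42.2% of all genes (22.9% higher and 19.2% lower). On day 3, 5 were higher and 2 lower, against 43.2% (24% higher and 19.2% lower). On day 6 the 8 higher and 0 lower stood against 42.9% (22% higher and 20.8% lower). The median log2 fold change of the 10 genes was -0.43, -0.35, 0.37 and 1.21 on days 0, 1, 3 and 6, where that of all genes was -0.001, 0.029, 0.04 and 0.004. Of all genes called on these days, 42.1, 54.4, 55.5 and 51.4% were higher, and with limma on log2(TPM + 1) these shares were 31.3, 43.3, 34.3 and 34.9%.

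**Figure D1:**
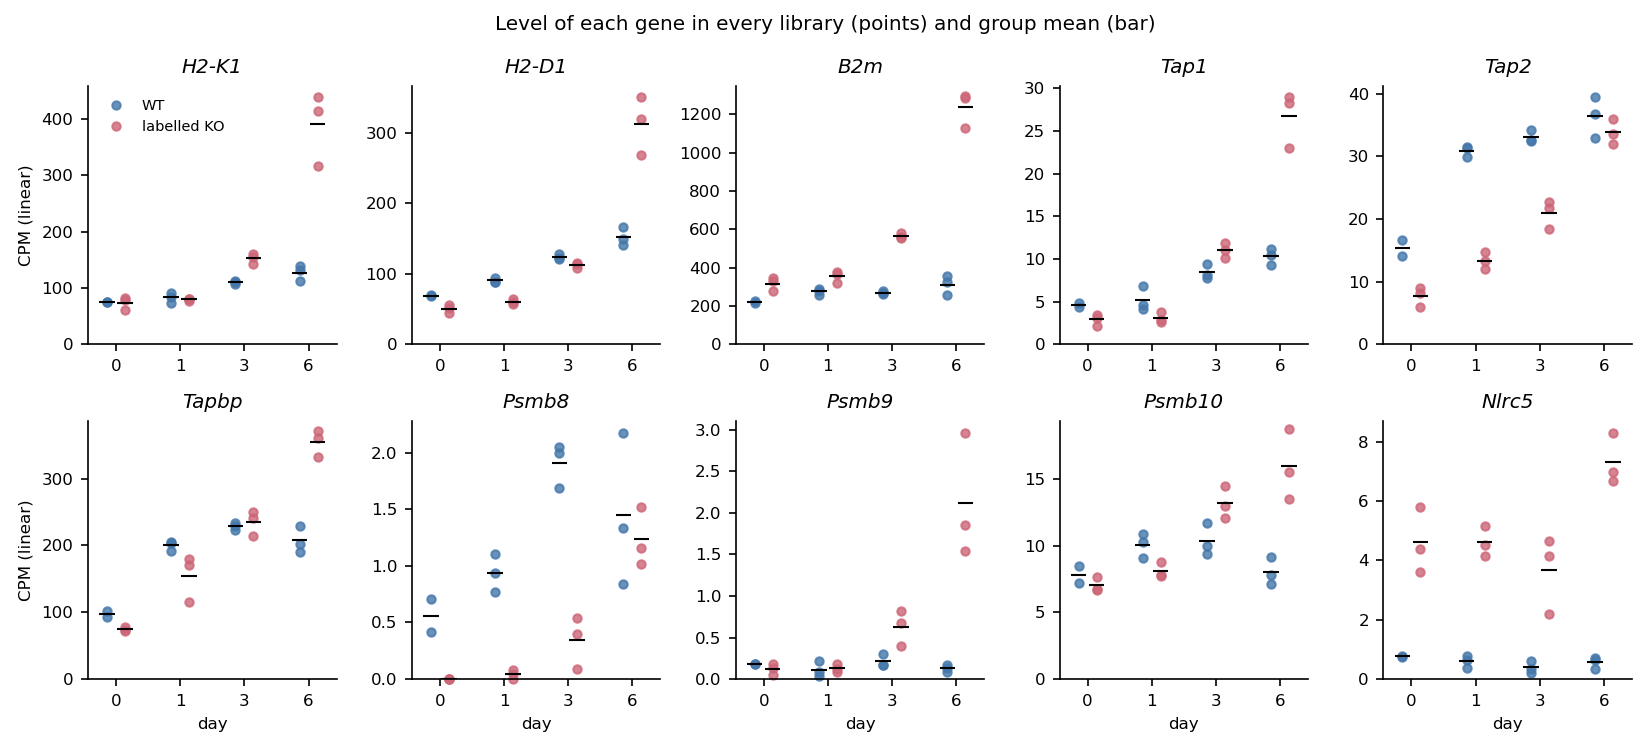
CPM of each of the 10 genes (linear axis from 0) against day in WT and in KO-labelled libraries, with 1 point per library and a bar at the group mean. On day 6 KO-labelled libraries lie above all WT libraries for 8 genes, and the groups overlap for Tap2 and Psmb8. The share of all genes that separate in this way was not counted.

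The light chain B2m, which pairs with every class I heavy chain, was higher in KO-labelled libraries on all 4 days. In WT it stood at 213 and 227 CPM on day 0, at 259, 280 and 289 on day 1, at 262, 279 and 265 on day 3 and at 354, 325 and 255 on day 6. In KO-labelled libraries it stood at 328, 343 and 275 CPM on day 0, at 376, 321 and 367 on day 1, at 552, 559 and 579 on day 3 and at 1130, 1293 and 1284 on day 6. The genotypes did not overlap on any day. The fold was 1.43 on day 0 (log2 0.52 ± 0.11, adjusted p = 0.0019) and 1.29 on day 1 (log2 0.36 ± 0.10, adjusted p = 0.0051). It was 2.1 on day 3 (log2 1.07 ± 0.10, adjusted p = 9.6e-09) and 3.97 on day 6 (log2 1.99 ± 0.10, adjusted p = 2.2e-13). In the order of its levels, the day 6 and day 3 KO-labelled groups stood apart at the top. KO-labelled libraries of day 0 overlapped those of day 1 and WT on days 1, 3 and 6. WT on day 6 also overlapped KO-labelled libraries of day 1 and WT on days 1 and 3. WT on days 1 and 3 overlapped each other as well. WT on day 0 was lowest and overlapped no other group.

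H2-K1, a classical heavy chain that shows peptides to CD8 T cells, did not pass the test between genotypes in growth medium or on day 1 (log2 -0.01 ± 0.13 and -0.07 ± 0.11, adjusted p = 0.97 and 0.67). WT libraries held 74.2 and 74.4 CPM on day 0, 83.7, 91.7 and 74 on day 1, 112, 111 and 106 on day 3, and 132, 138 and 112 on day 6. KO-labelled libraries held 81.5, 78.2 and 61 CPM on day 0, 80.8, 77 and 80.5 on day 1, 143, 155 and 161 on day 3, and 317, 414 and 439 on day 6. On days 3 and 6 every KO-labelled library was above every WT library. The fold was 1.39 on day 3 (log2 0.48 ± 0.11, adjusted p = 0.0014) and 3.06 on day 6 (log2 1.62 ± 0.11, adjusted p = 5.7e-11).

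H2-D1, the other classical heavy chain of the list, changed direction. It was lower in KO-labelled libraries on day 0 (55.2, 50.9 and 45.1 against 70.2 and 68 CPM) and on day 1 (59.6, 57.9 and 64.7 against 89.1, 93.7 and 89.1 CPM). On day 3 it stood at 109, 114 and 115 against 123, 121 and 128 CPM, and on day 6 at 269, 319 and 352 against 149, 167 and 140 CPM. Log2 fold changes were -0.45 ± 0.10 on day 0 (adjusted p = 0.0023) and -0.58 ± 0.09 on day 1 (adjusted p = 1.9e-05). The day 3 value of -0.14 ± 0.09 did not pass (adjusted p = 0.23), although the libraries did not overlap. With limma on log2(TPM + 1) it was called (adjusted p = 0.0023), but that fit moved the median of all genes by -0.12. The day 6 value was 1.04 ± 0.09 (adjusted p = 1.3e-09).

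Heavy chain genes are near-identical in long stretches, and C2C12 comes from the C3H strain while the reference genome is C57BL/6. How the reads were shared among them is therefore uncertain. Summing the counts of 16 H2 genes gave log2 fold changes of -0.26 on day 0 (adjusted p = 0.079), -0.41 on day 1 (adjusted p = 0.00083), 0.21 on day 3 (adjusted p = 0.057) and 1.3 on day 6 (adjusted p = 4.7e-11). So the day 0 call of H2-D1 and the day 3 call of H2-K1 did not carry over to the sum. In the sum the direction on day 6 was that of both genes. The ratio of H2-K1 to H2-D1 in TPM, chosen after the values were seen, was 1.12 ± 0.0393, 0.963 ± 0.0573, 1.08 ± 0.0873 and 0.971 ± 0.0648 (SD, n = 3) in KO-labelled libraries on days 0, 1, 3 and 6. In WT it was 0.804 ± 0.0227 (SD, n = 2), 0.729 ± 0.0975, 0.685 ± 0.0575 and 0.683 ± 0.0418 (SD, n = 3). These ratios did not overlap between genotypes on any day.

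The products of the transporter genes work as a pair. Both genes were lower in KO-labelled libraries on days 0 and 1, and on day 6 Tap1 was higher while Tap2 did not pass the test. Tap1 was lower in KO-labelled libraries on day 0 (3.4, 3.13 and 2.18 against 4.84 and 4.31 CPM) and on day 1 (2.84, 2.64 and 3.8 against 4.55, 6.83 and 4.19 CPM). It stood at 11.9, 10.1 and 11 against 7.79, 8.1 and 9.46 CPM on day 3, and was higher on day 6 with 22.9, 28.3 and 28.9 against 10.5, 11.2 and 9.27 CPM. The groups overlapped on none of the days. Log2 fold changes were -0.65 ± 0.22 (adjusted p = 0.039), -0.75 ± 0.19 (adjusted p = 0.0029), 0.38 ± 0.16 (adjusted p = 0.061) and 1.37 ± 0.16 (adjusted p = 1.6e-07). The day 0 call of Tap1 was lost without replicate 2 or 3 labelled KO or either WT replicate (adjusted p 0.059 to 0.28) and in the fit with a replicate block (adjusted p = 0.057).

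Tap2 was lower in KO-labelled libraries until day 3 and did not pass the test on day 6. WT libraries held 16.6 and 14.1 CPM on day 0, 29.9, 31.3 and 31.5 on day 1, 32.5, 32.6 and 34.2 on day 3, and 32.9, 39.6 and 36.8 on day 6. KO-labelled libraries held 8.98, 8.17 and 5.93 CPM on day 0, 13.3, 12 and 14.8 on day 1, 22.7, 21.8 and 18.4 on day 3, and 31.9, 33.6 and 36 on day 6. WT libraries thus stood at 29.9 CPM or more from day 1 on, a level that KO-labelled libraries passed only on day 6, where the groups overlapped. Log2 fold changes were -0.996 ± 0.138 (adjusted p = 1.1e-05), -1.21 ± 0.12 (adjusted p = 2e-08), -0.66 ± 0.11 (adjusted p = 4.7e-05) and -0.10 ± 0.11 (adjusted p = 0.47). The ratio of Tap1 to Tap2 in TPM, also chosen after the values were seen, was 0.313 ± 0.00692 in KO-labelled libraries (SD, n = 3) and 0.25 ± 0.00807 in WT (SD, n = 2) on day 0. It was 0.191 ± 0.0207 against 0.139 ± 0.036 on day 1, 0.441 ± 0.0568 against 0.211 ± 0.0158 on day 3 and 0.654 ± 0.0501 against 0.236 ± 0.0287 on day 6 (SD, n = 3 each). The libraries overlapped on day 1 and not on the other 3 days.

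Tapbp, whose product bridges the transporter and the heavy chain, was 1.32-fold lower on day 0 and 1.3-fold lower on day 1 in KO-labelled libraries. Its levels were 78.6, 73.2 and 71.6 against 102 and 93.6 CPM on day 0, and 170, 115 and 179 against 205, 204 and 192 CPM on day 1. On day 3 the groups overlapped (241, 214 and 250 against 233, 230 and 223 CPM), and on day 6 KO-labelled libraries were all higher (332, 361 and 371 against 190, 230 and 203 CPM). The tests gave log2 -0.40 ± 0.13 (adjusted p = 0.032), -0.37 ± 0.11 (adjusted p = 0.0098), 0.04 ± 0.11 (adjusted p = 0.81) and 0.77 ± 0.11 (adjusted p = 5.5e-06). The day 0 call was lost without replicate 2 or 3 labelled KO or either WT replicate (adjusted p 0.073 to 0.28). The day 1 call was lost when only the groups compared were fitted (adjusted p = 0.078). Without replicate 2 labelled KO, the lowest of its group at 115 CPM, the day 1 value was -0.22 (adjusted p = 0.027).

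**Figure D2:**
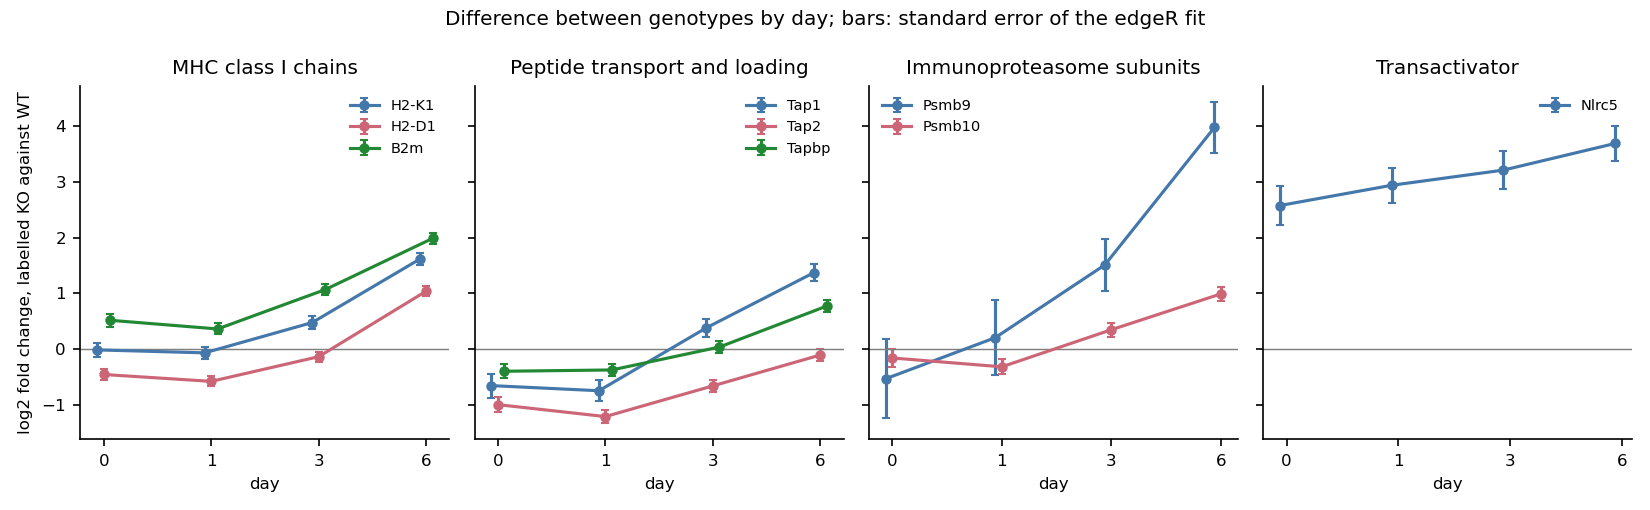
Log2 fold change of KO-labelled libraries against WT (y axis) by day (x axis), with points for the edgeR estimate and bars for its standard error. Psmb8 is left out because its day 0 KO-labelled group had no counts. B2m and Nlrc5 lie above 0 on all 4 days, and on day 6 only Tap2 of the genes shown lies below 0.

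The immunoproteasome subunits differed from one another. Psmb8 (LMP7) was the scarcest in KO-labelled libraries at the start, with 0 counts in each of the 3 libraries on day 0 against 16 and 9 counts in WT. On day 1 it had 0, 2 and 1 counts against 22, 26 and 18, and on day 3 12, 9 and 2 counts against 47, 46 and 39. On day 6 the groups overlapped, with 23, 27 and 35 against 31, 49 and 20 counts. Taking 3 counts per library as the floor, the day 0 level of Psmb8 was at least 4.05-fold lower. The day 1 level was 21.3-fold lower (exact counting interval 6.99 to 106 at 95%, from 66 and 3 counts). Both days passed the test (adjusted p = 0.00032 and 3.6e-05), as did day 3 (log2 -2.45 ± 0.44, adjusted p = 0.00012), and day 6 did not (log2 -0.23 ± 0.38, adjusted p = 0.67). The interval and the floor cover counting error only, since no molecular identifiers separate PCR copies.

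Psmb9 (LMP2) showed the other pattern. It was near the floor in both genotypes on day 0 (1, 4 and 3 counts labelled KO, 4 and 4 in WT) and on day 1 (4, 3 and 2 against 1, 5 and 2 counts). On day 3 it had 18, 9 and 15 against 4, 7 and 4 counts, and on day 6 it had 35, 43 and 68 against 2, 3 and 4 counts. The day 6 fold was 15.8 (log2 3.98 ± 0.46, adjusted p = 1.8e-07) and that of day 3 was 2.85 (log2 1.51 ± 0.47, adjusted p = 0.012). Without replicate 1 labelled KO the day 3 call was lost (log2 1.29, adjusted p = 0.057). Days 0 and 1 did not pass (adjusted p = 0.70 and 0.83). Outside the KO-labelled groups of days 3 and 6, no library reached the filter's minimum count of 10. Psmb9 thus passed the filter only through the groups where it was high, so its calls are not independent of the filter.

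Psmb10 (MECL-1) was the most abundant of the 3 subunits. It stood at 7.62, 6.77 and 6.67 CPM labelled KO against 7.21 and 8.47 in WT on day 0, and at 7.8, 7.7 and 8.77 against 10.3, 9.12 and 10.8 CPM on day 1. It stood at 14.5, 12.1 and 13 against 11.7, 9.97 and 9.41 CPM on day 3, and at 13.5, 15.6 and 18.8 against 7.13, 9.14 and 7.8 CPM on day 6. The day 6 fold was 1.99 (log2 0.99 ± 0.13, adjusted p = 1.3e-06). The day 1 value (log2 -0.32 ± 0.13) narrowly failed (adjusted p = 0.058) and passed with RLE or library-size scaling (adjusted p = 0.042 and 0.026), with DESeq2 (adjusted p = 0.043) and with log2(TPM + 1) (adjusted p = 0.026). The day 3 value (log2 0.35 ± 0.13) passed (adjusted p = 0.032), but not with RLE or library-size scaling, without the filter, with DESeq2 or with TPM (adjusted p 0.053 to 0.18). It also failed without replicate 1 or 3 labelled KO, or WT replicate 2 or 3 (adjusted p 0.059 to 0.14).

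Each of these subunits takes the place of a constitutive partner in the proteasome core, Psmb8 of Psmb5, Psmb9 of Psmb6 and Psmb10 of Psmb7. The partners are far more abundant, and Psmb5 and Psmb6 were called between genotypes on none of the 4 days (day 6 log2 0.13, adjusted p = 0.23, and -0.04, adjusted p = 0.76). Psmb7 was higher on day 1 (log2 0.33 ± 0.11, adjusted p = 0.014), day 3 (0.40 ± 0.11, adjusted p = 0.004) and day 6 (0.42 ± 0.11, adjusted p = 0.0027). The call of day 1 was lost without replicate 2 labelled KO or WT replicate 1, and with log2(TPM + 1) no partner was called on days 1 and 3. In TPM, Psmb9 was 2.83% ± 0.929 of Psmb6 in KO-labelled libraries on day 6 and 0.174% ± 0.0796 in WT (SD, n = 3 each), without overlap. Psmb10 was 13.2% ± 1.41 of Psmb7 against 8.91% ± 1.04, also without overlap, and Psmb8 was 1.15% ± 0.186 of Psmb5 against 1.44% ± 0.524, with overlap. On the TPM scale, then, each constitutive subunit exceeded its immunoproteasome counterpart in every library.

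**Figure D3:**
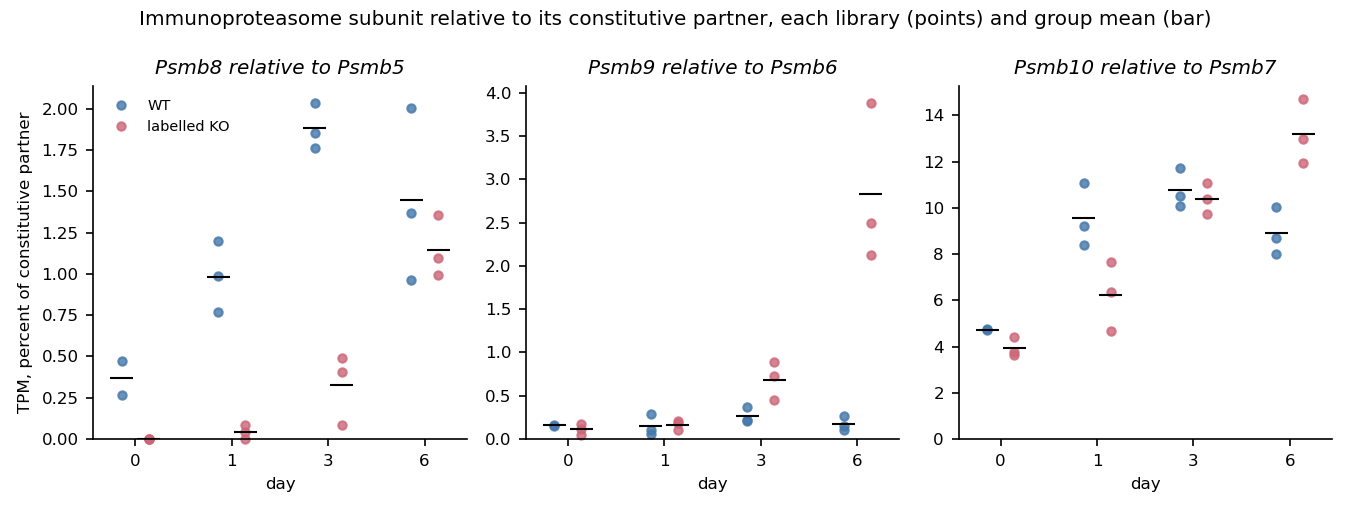
TPM of each immunoproteasome subunit as a percent of its constitutive partner (linear axes from 0) against day, with 1 point per library and a bar at the group mean. On day 6, Psmb9 reached 2.12 to 3.88% of Psmb6 in KO-labelled libraries and 0.108 to 0.262% in WT, while Psmb8 differed most between genotypes on the earlier days.

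Nlrc5, which drives class I transcription, was higher in KO-labelled libraries on all 4 days without overlap. It stood at 5.81, 4.39 and 3.61 CPM against 0.792 and 0.741 in WT on day 0, and at 4.15, 5.15 and 4.52 against 0.765, 0.636 and 0.384 on day 1. It stood at 4.66, 4.15 and 2.2 against 0.218, 0.607 and 0.347 CPM on day 3, and at 8.29, 6.67 and 6.97 against 0.344, 0.71 and 0.629 CPM on day 6. Folds were 5.97, 7.68, 9.28 and 12.9 in that order (log2 2.58 ± 0.35, 2.94 ± 0.31, 3.21 ± 0.34 and 3.69 ± 0.31, adjusted p from 9.8e-06 to 1.2e-09). So Nlrc5 was already higher on days 0 and 1, when B2m was also higher, H2-D1, Tap1, Tap2, Tapbp and Psmb8 were lower, and H2-K1, Psmb9 and Psmb10 did not pass the test.

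The next question was how the genes changed during differentiation within each genotype. In WT, 5 genes rose by day 1 (54.7% of all genes called, 27.1% higher and 27.6% lower), 8 by day 3 (58.2%, 29.2% higher and 29% lower) and 7 by day 6 (63.6%, 32.6% higher and 31.1% lower), and none fell. The totals of days 1 and 6 were near the shares of all genes called in either direction. The median log2 change was 0.34, 0.70 and 0.93. Of all genes called on these days, 49.6, 50.1 and 51.2% were higher, and with limma on log2(TPM + 1) these shares were 60.6, 63.8 and 63.5%. Tap2 and Tapbp rose most by day 1, by 1.01 ± 0.13 and 1.03 ± 0.13 on the log2 scale (adjusted p = 7.3e-07 and 4.6e-07), and were up by 1.25 ± 0.13 and 1.08 ± 0.13 on day 6. H2-K1 rose by 0.78 ± 0.13, H2-D1 by 1.14 ± 0.10, B2m by 0.50 ± 0.11, Tap1 by 1.17 ± 0.20 and Psmb8 by 1.35 ± 0.48 on day 6 (adjusted p from 1.5e-09 to 0.018). Psmb9, Psmb10 and Nlrc5 did not pass on day 6 (log2 -0.47, 0.03 and -0.45, adjusted p 0.37 to 0.86).

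Several WT calls turned on a single library. Psmb10 was called on day 1 (log2 0.36, adjusted p = 0.045) and day 3 (log2 0.40, adjusted p = 0.025), and these calls were lost without day 0 replicate 1 (adjusted p = 0.22 and 0.16), day 0 replicate 2 (day 1 only, adjusted p = 0.052), day 1 replicate 3 (adjusted p = 0.13) or day 3 replicate 1 (adjusted p = 0.11). The day 1 call of Psmb10 was also lost with a replicate block. For B2m the day 1 call (log2 0.32, adjusted p = 0.017) was lost without day 0 replicate 1 or day 1 replicate 3 (adjusted p = 0.067 and 0.055). The day 3 call of B2m (log2 0.29, adjusted p = 0.032) was lost without either day 0 replicate or day 3 replicate 3 (adjusted p 0.051 to 0.11). Psmb8 lost its day 3 call (log2 1.75, adjusted p = 0.0033) and its day 6 call without day 0 replicate 2 (adjusted p = 0.062 and 0.17), and its day 6 call without day 6 replicate 2 (adjusted p = 0.11).

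In KO-labelled libraries, 3 genes had risen by day 1, near the 27.2% of all genes called higher, and all 10 by day 6. The 3 genes of day 1 (52.3% of all genes called, 27.2% higher and 25.2% lower) were H2-D1, Tap2 and Tapbp with log2 changes of 0.27 ± 0.09, 0.79 ± 0.13 and 1.05 ± 0.11. With limma on log2(TPM + 1), 6 genes were called on day 1, with H2-K1, B2m and Psmb10 added (adjusted p = 0.031, 0.0011 and 0.017). By day 3, 9 had risen (57.6%, 30.4% higher and 27.2% lower), all but Nlrc5, and by day 6 10 had (70%, 36.6% higher and 33.5% lower). Median log2 changes were 0.19, 1.30 and 2.33, and the day 3 median was 1.24 with Psmb8 at its bound. Of all genes called, 51.9, 52.7 and 52.2% were higher, and with limma on log2(TPM + 1) these shares were 65.2, 60.3 and 58.9%. From day 0 to day 6, Tap1 rose 9.18-fold (log2 3.2 ± 0.18), H2-D1 6.22-fold (2.64 ± 0.09), H2-K1 5.3-fold (2.41 ± 0.12), Tapbp 4.76-fold (2.25 ± 0.12), Tap2 4.4-fold (2.14 ± 0.12) and B2m 3.92-fold (1.97 ± 0.10). Psmb9 rose 16.5-fold (4.05 ± 0.47), from day 0 counts near the floor, and Psmb10 rose 2.27-fold (1.18 ± 0.13). Psmb8 stood at least 8.91-fold higher than its day 0 floor. Adjusted p-values of these genes were between 5.6e-17 and 3.3e-07.

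Nlrc5 rose least in KO-labelled libraries, 1.59-fold on day 6 (log2 0.67 ± 0.24, adjusted p = 0.018). That call was lost without day 0 replicate 2 or 3 (adjusted p = 0.055 and 0.096) or day 6 replicate 1 (adjusted p = 0.075). The day 1 call of H2-D1 (adjusted p = 0.016) was lost with only the groups compared (adjusted p = 0.062), and without day 0 replicate 3 (adjusted p = 0.11) or day 1 replicate 3 (adjusted p = 0.074).

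An interaction term tested directly whether the genotypes changed by different amounts since day 0. On day 1 it was called for 0 of the 10 genes, against 3.95% of all genes (2.64% higher and 1.31% lower). None had an unadjusted p under 0.05, the smallest being 0.155, and DESeq2 and limma on TPM also called 0. On day 3 it was called for B2m (log2 0.55 ± 0.15, adjusted p = 0.017) and Tap1 (1.04 ± 0.27, adjusted p = 0.014), against 10.7% of all genes (6.65% higher and 4.06% lower). The B2m call was lost without WT day 0 replicate 1 or 2 (adjusted p = 0.055 and 0.10), and the Tap1 call without WT day 0 replicate 1 (adjusted p = 0.10). On day 6 it was called for 9 of the 10, against 13% of all genes (7.54% higher and 5.42% lower), each time with the larger rise in KO-labelled libraries. These comparisons use the same day 0 libraries as the ones above, so they are not independent of them. Of all genes with a called interaction, 66.8, 62.1 and 58.2% were higher on days 1, 3 and 6. With limma on log2(TPM + 1) these shares were 51.4, 45.2 and 51.6%.

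On day 6 the extra rise was largest for Psmb9 among genes with counts in every group (log2 4.51 ± 0.91, adjusted p = 0.0013), followed by Tap1 (2.03 ± 0.27, adjusted p = 8.6e-06). H2-K1 (1.63 ± 0.17), H2-D1 (1.5 ± 0.13) and B2m (1.47 ± 0.15) followed (adjusted p from 3e-08 to 3.2e-07). The Psmb9 value rests on few counts, since both genotypes on day 0 and WT on day 6 were near the floor of 3 counts. Tapbp (1.17 ± 0.17), Psmb10 (1.15 ± 0.20) and Tap2 (0.89 ± 0.18) showed the smallest among the genes called (adjusted p from 2.9e-05 to 0.0011). Nlrc5 did not pass (1.11 ± 0.50, adjusted p = 0.16). Psmb8 was called (adjusted p = 0.0018), but its fitted value of 6.46 rests on a group without counts, and with log2(TPM + 1) the value was 0.67 and was not called (adjusted p = 0.089).

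The 10 genes did not follow a single course over the 8 groups. The mean of their log2 CPM, each centred on its own mean, ordered the groups from the day 6 (1.53) and day 3 (0.41) KO-labelled libraries through WT on day 6 (0.09), day 3 (0.08) and day 1 (-0.22). KO-labelled libraries of day 1 (-0.51), WT on day 0 (-0.54) and KO-labelled libraries of day 0 (-0.84) were lowest. The WT groups of days 3 and 6 differed by little on this scale, as did the day 1 KO-labelled group and WT on day 0. Against the mean of the other genes, Pearson's r over the 8 group means was 0.978 for H2-K1, 0.955 for Tap1, 0.946 for H2-D1, 0.902 for Psmb10, 0.873 for Psmb9, 0.859 for Tapbp and 0.833 for B2m. It was 0.615 for Tap2, 0.391 for Psmb8 and 0.0545 for Nlrc5. Outside the list, the genes most like the mean course were Mfsd12 (r = 0.995), Cmtr1 (0.994), Phf11b (0.994), Usp28 (0.993) and Abhd1 (0.99). These correlations are descriptions over the same 8 groups, and the points share libraries.

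Further genes of the pathway were read from lists chosen by function. The lists and their calls refer to labelled KO against WT. Their totals stand against 17.5, 42.2, 43.2 and 42.9% of all genes called on days 0, 1, 3 and 6. Of 16 other class I heavy chain genes, 11 were tested. On days 0, 1, 3 and 6, 0, 1, 3 and 7 of them were higher and 5, 7, 2 and 2 were lower. The day 3 total of 5 of 11 was near the 43.2% of all genes. Without WT replicate 1 of the same day, 2 rather than 5 were called on day 0 and 5 rather than 8 on day 1. The largest day 6 change was in H2-T24, a nonclassical gene, with 20.1, 23.1 and 19.2 CPM against 0.516, 0.31 and 0.545 CPM (log2 5.49 ± 0.29, adjusted p = 3e-13). H2-Q4 (1.53 ± 0.08, adjusted p = 4.6e-13) and the scarce H2-Q6 (1.72 ± 0.60, adjusted p = 0.025) were also higher. The H2-Q6 call was lost without replicate 2 or 3 labelled KO or WT replicate 1 or 3 (adjusted p 0.073 to 0.10). The 2 genes lower on all 4 days, named after their values were seen, were H2-M3, which presents formylated peptides, and Mr1, which presents vitamin metabolites. On day 6 their log2 fold changes were -1.01 ± 0.24 (adjusted p = 0.0016) and -0.75 ± 0.10 (adjusted p = 2.8e-06).

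Among 10 other genes of the loading complex and of peptide trimming, 0, 4, 3 and 5 were higher and 0, 1, 2 and 1 lower on days 0, 1, 3 and 6. The totals of 5 of 10 on days 1 and 3 were near the shares of all genes (42.2 and 43.2%). On day 6, 42.9% of all genes were called, 22% higher and 20.8% lower. With any 1 library left out, the total of 5 on day 3 became 2 or 3 and the total of 6 on day 6 became 4 or 5. On day 1 the total of 5 became 2 or 3 without replicate 2 labelled KO or any 1 WT replicate. With DESeq2 the day 3 total was 2, and with only the groups compared the day 1 total was 1. Thop1, a peptidase that destroys peptides in the cytosol, was higher on day 6 (log2 1.10 ± 0.11, adjusted p = 2.6e-08). So were Tapbpl, a tapasin relative that edits peptides (0.97 ± 0.15, adjusted p = 1.3e-05), and Erap1, which trims peptides in the endoplasmic reticulum (0.80 ± 0.12, adjusted p = 8.9e-06).

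Of 10 proteasome activators and assembly chaperones, 0, 3, 4 and 4 were higher and 1, 1, 0 and 0 lower. The 4 of 10 called on each of days 1, 3 and 6 were near the 42.2, 43.2 and 42.9% of all genes, so these totals too show nothing about the list. The 4 of day 6 became 2 without replicate 3 labelled KO or WT replicate 1 or 3. The totals of 4 on days 1 and 3 became 2 without WT replicate 2 and without replicate 3 labelled KO, and the 1 on day 0 became 0 without either WT replicate. With only the groups compared, the day 1 total was 1. Their day 6 changes were small, at most 0.42 ± 0.11 for the activator subunit Psme1 (adjusted p = 0.0026). Pomp, the chaperone of core assembly, was higher by 0.30 ± 0.07 (adjusted p = 0.0021) and the chaperone Psmg4 by 0.35 ± 0.13 (adjusted p = 0.032). The Psmg4 call was lost with scaling by library size alone (adjusted p = 0.062), and without replicate 1 or 3 labelled KO or WT replicate 1 or 3 (adjusted p 0.088 to 0.19).

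Of 16 regulators of class I transcription, 14 were tested. On the 4 days 1, 2, 5 and 7 were higher and 3, 3, 2 and 3 lower, against 17.5, 42.2, 43.2 and 42.9% of all genes. The totals of days 0, 1 and 3 were not far from those shares. The total of 4 on day 0 became 1 without replicate 2 or 3 labelled KO or either WT replicate, and the total of 5 on day 1 became 2 without WT replicate 1 and 1 with only the groups compared. Irf9 and Stat2, which act together in interferon signalling, were higher on day 6. Irf9 stood at 38.3, 45.6 and 46.6 CPM in KO-labelled libraries and at 9.71, 8.65 and 6.71 CPM in WT (log2 2.38 ± 0.13, adjusted p = 9.5e-13). Stat2 stood at 110, 123 and 115 against 28.5, 24.5 and 29.4 CPM (log2 2.08 ± 0.10, adjusted p = 6.2e-14). For both genes, every KO-labelled library was above every WT library.

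Of 10 genes of the MHC class II pathway, only H2-DMa and Cd74 had enough counts to be tested. H2-DMa was lower on all 4 days and Cd74 on days 3 and 6, and none was higher (all genes called: 17.5, 42.2, 43.2 and 42.9%). The day 0 call was lost without replicate 2 or 3 labelled KO or either WT replicate, and 1 of the 2 calls of day 3 without replicate 2 labelled KO or WT replicate 1 or 3. On day 6 Cd74, the invariant chain, stood at a mean of 0.652 CPM in KO-labelled libraries and 1.83 CPM in WT (log2 -1.48 ± 0.32, adjusted p = 0.00057). H2-DMa, which loads class II, differed on day 6 by -0.54 ± 0.21 (adjusted p = 0.041), a call lost without replicate 1 or 2 labelled KO or WT replicate 1 or 2 (adjusted p 0.057 to 0.19).

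**Figure D4:**
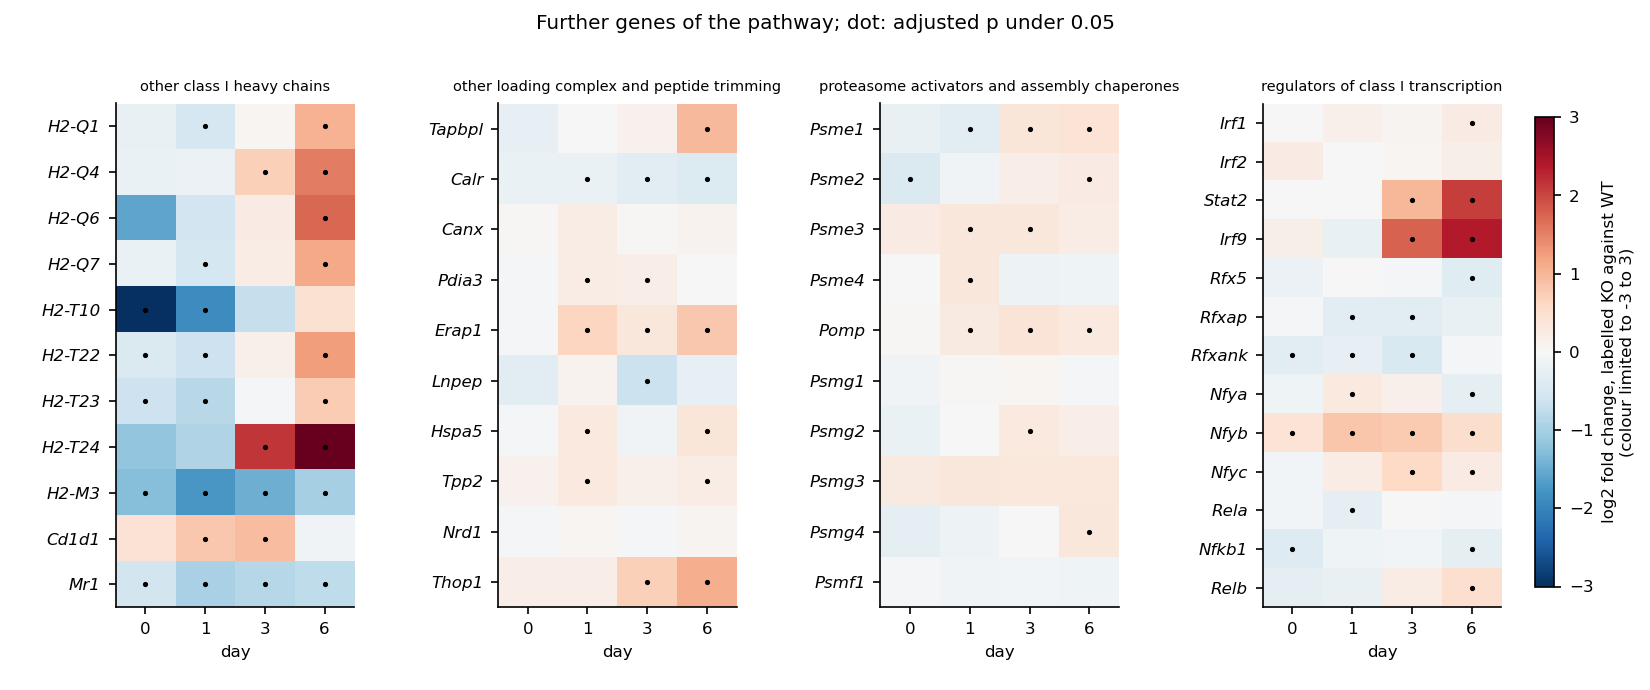
Log2 fold change of KO-labelled libraries against WT (colour, capped at 3 in either direction) for the tested genes of 4 further lists (rows) by day (columns), with a dot where the adjusted p is under 0.05. Of the regulators counted, 1 is not shown. Stat2, Irf9 and H2-T24 turn dark on days 3 and 6, and H2-M3 and Mr1 are pale to dark blue on all 4 days.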

How the data were processed

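The members and lists were chosen with earlier results of these data known. Per the submitters' processing notes, Bowtie2, RSEM and mm10 were used, versions not given. The authors deposited estimated counts per gene symbol, as whole numbers, and TPM. Any use of strand is not given in the sources used here. Counts were tested with edgeR 4.0.16 in R 4.3.3 (quasi-likelihood F-test, TMM, filterByExpr with minimum count 10 and total 15, group means over all 23 libraries). Within each of 13 contrasts, Benjamini-Hochberg adjustment ran over the 14187 genes tested. A log2 fold change is followed by its standard error. Correlations and bounds are descriptions. The floor was 3 counts per library.

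Named genes were the 10 members, up to 3 genes per list with the largest called day 6 change, the constitutive partners, and the 5 genes most like the members' mean course. Of the regulators, 1 gene this rule names is not reported here, though the list totals include it. Alternatives were DESeq2 1.42.0, scaling by RLE or library size, dropping the filter or keeping genes whose mean count reaches 50, limma 3.58.1 on log2(TPM + 1) and log2(TPM + 0.1), only the groups compared, a replicate block, stricter thresholds, summed heavy chains and each library left out. Applying them to the further lists and their named genes was chosen after seeing the data. On simulated counts for labelled KO against WT on day 6 (14187 genes, 200 changed), 84% of genes changed by log2 1 and 99% by log2 2 were recovered, with 2.66% of calls false. All groups were simulated from the WT day 6 means, and only genes expected at 10 counts or more were changed. These rates therefore do not cover scarcer genes such as Psmb9, nor data where 42.9% of all genes are called.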

Additional observations from a re-analysis of the deposited data

Results flagged for a closer look

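By the interaction term of edgeR's quasi-likelihood test, the genotypes changed by different amounts since day 0 for 2 of the 10 genes on day 3 and 9 on day 6, against 10.7 and 13% of all genes. On day 3 these were B2m (log2 0.55, adjusted p = 0.017) and Tap1 (1.04, adjusted p = 0.014). The B2m call was lost without WT day 0 replicate 1 or 2 (adjusted p = 0.055 and 0.10), and the Tap1 call without WT day 0 replicate 1 (adjusted p = 0.10). On day 6 the interaction was 1.63 for H2-K1, 1.5 for H2-D1 and 1.47 for B2m. It was 2.03 for Tap1, 0.89 for Tap2 and 1.17 for Tapbp, and among the immunoproteasome subunits 6.46 for Psmb8, 4.51 for Psmb9 and 1.15 for Psmb10. Adjusted p-values on day 6 ran from 3e-08 to 0.0018. The rise since day 0 was the larger in KO-labelled libraries in each case. The Psmb8 value rests on a day 0 group with no counts, and the Psmb9 value on groups near the floor of 3 counts.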

How the results depend on the processing

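The counts of the 10 genes called were within 1.5 times those reported under every alternative except the following. Requiring an absolute log2 fold change of at least 1 left 2, 3 and 4 genes for KO-labelled libraries against WT on days 0, 1 and 3. It left 2 and 3 in WT on days 1 and 3 against day 0, 1 in KO-labelled libraries on day 1 against day 0, and 1 in the day 3 interaction. An adjusted p under 0.01 left 3 in WT on day 1 and 0 in the day 3 interaction. A mean count of at least 50 left 4 genes for KO-labelled libraries against WT on day 3. Psmb8 and Psmb9 were then not tested, and a gene still tested also lost its call. In KO-labelled libraries on day 1 against day 0, log2(TPM + 1) and log2(TPM + 0.1) gave 6. Fitting only the groups compared gave 4 in the day 3 interaction. With 1 library left out, the counts ran from 3 to 5 in WT on day 1 and from 0 to 3 in the day 3 interaction. Where another reason is not given, the cause was not tested.

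Some values near 0 that were not called, or rested on few counts, changed sign. Tapbp on day 3, KO-labelled against WT, was -0.00071 with RLE scaling, -0.017 with library size only, -0.0094 with a mean count of at least 50, -0.00071 with DESeq2 and -0.11 and -0.12 with log2(TPM + 1) and log2(TPM + 0.1). The day 1 interaction of Tapbp was -0.012 with RLE scaling, -0.023 with a mean count of at least 50, -0.012 with DESeq2 and -0.0069 with only the groups compared. The day 1 change of Nlrc5 in KO-labelled libraries was -0.0013 with RLE scaling, -0.029 with no filter and -0.0013 with DESeq2. With log2(TPM + 1) and log2(TPM + 0.1), the day 1 interaction was 0.024 and 0.026 for H2-D1 and -0.37 and -0.15 for Psmb8. With log2(TPM + 1), the day 3 interaction was -0.62 for Psmb8 and -0.063 for Nlrc5. H2-D1 on day 3 was 0.21 with the heavy chain genes summed.

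Leaving out single libraries gave these ranges for KO-labelled against WT: H2-K1 -0.065 to 0.11 on day 0 and -0.14 to 0.0018 on day 1, Psmb9 -0.18 to 0.98 on day 1, Tapbp -0.0083 to 0.10 on day 3, and Psmb8 -0.54 to 0.18 and Psmb6 -0.19 to 0.061 on day 6. For KO-labelled libraries on day 1 against day 0 they were -0.28 to 0.50 for Psmb9, -0.15 to 0.22 for Nlrc5, -0.0082 to 0.20 for H2-K1 and -0.085 to 0.23 for Tap1. In WT they were -0.016 to 0.32 for Tap1 on day 1, -0.0067 to 0.39 for Psmb9 on day 3 and -0.069 to 0.16 for Psmb10 on day 6. The day 1 interaction ran from -0.096 to 0.15 for Tapbp and from -0.27 to 0.12 for Tap1.

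Deviations of libraries with equal replicate numbers correlated between -0.240 and 0.116. With so few libraries per group, this cannot tell whether equal numbers share a culture. With a replicate block, 6 genes were called on day 0 instead of 7 (Tap1 was lost) and 4 in WT on day 1 instead of 5 (Psmb10 was lost), and H2-K1 on day 0 was 0.0075. The other counts of the 10 genes under the block were those reported.

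Over all genes, requiring an absolute log2 fold change of at least 1 reduced the called genes from 2479, 5981, 6127 and 6082 to 793, 1253, 1579 and 1731 on days 0, 1, 3 and 6. Fitting only the groups compared gave 3607 on day 1, and 239 and 2613 instead of 560 and 1519 in the day 1 and day 3 interactions. On day 0, 1265 and 1499 genes were called without WT replicate 1 and 2. Without WT day 0 replicate 1 and 2, the interaction called 244 and 148 genes on day 1, 979 and 829 on day 3, and 1215 and 1184 instead of 1839 on day 6. The day 1 interaction also called 335 and 329 without day 0 KO-labelled replicate 1 and 2, 919 without day 1 KO-labelled replicate 3, and 325 and 289 without WT day 1 replicate 1 and 2. The TPM fits moved the median of all genes by -0.12 and -0.15 on day 3 and by -0.10 and -0.12 on day 6. Depth limits Psmb8 and Psmb9, which had fewer than 70 counts in every library.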
